A study of Sus scrofa with 6 samples.

Results

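The miRNAs described here are the 6 mature products of the miR-143, miR-145 and miR-199 hairpins that were chosen by name as smooth muscle and mesenchymal miRNAs, namely ssc-miR-143-3p, ssc-miR-143-5p, ssc-miR-145-5p, ssc-miR-145-3p, ssc-miR-199a-5p and ssc-miR-199b-5p (the prefix for pig is left out from here on). All 6 were found among the 453 porcine miRNAs of the table. They were measured by small-RNA sequencing of small extracellular vesicles (s-EVs) in follicular fluid of prepubertal Landrace × Large White gilts, with no treatment and no transgene in either group. The 3 HQ libraries came from fluid of follicles with an oocyte that lissamine green B did not stain (high quality), and the 3 LQ libraries from fluid of follicles whose oocyte took up that vital stain (low quality). Each library is a pool of fluid from many follicles of slaughterhouse ovaries. The labels and the paper call the 3 pools of a group biological replicates. How the animals were divided among the pools is not stated there, and the p-values measure the spread between pools. The names stromal and theca are working names: a vesicle carries no record of its cell of origin, and in bulk fluid fewer vesicles of a cell type and less RNA per vesicle cannot be told apart.

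A miRNA hairpin is cut into 2 arms, 5p and 3p, and one arm is usually loaded into the silencing complex as the guide while the other is mostly degraded. miR-143 and miR-145 are made from one primary transcript in mouse and human, are abundant in smooth muscle, and keep smooth muscle cells contractile. In rodent and human cells miR-145-5p represses the transcription factors KLF4 and KLF5. The miR-199 hairpins lie antisense inside genes of the dynamin family, are typical of fibroblasts and other mesenchymal cells, and miR-199a-5p is known from rodent and human cells to repress HIF1A and caveolin-1. In the ovary the theca around the follicle is the layer that holds smooth muscle-like and fibroblast-like cells.

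The mature sequences are shown because the groups of guides and paralogs below turn on them. They were read from Sscrofa11.1 at the positions of the RefSeq annotation and are given as RNA, 5′ to 3′, with the seed (bases 2 to 8) in capitals.
miR-143-3p: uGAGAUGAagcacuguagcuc
miR-143-5p: gGUGCAGUgcugcaucucugg
miR-145-5p: gUCCAGUUuucccaggaaucccuu
miR-145-3p: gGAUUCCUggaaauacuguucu
miR-199a-5p: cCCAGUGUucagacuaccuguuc
miR-199b-5p: cCCAGUGUuuagacuaucuguu
miR-199a-5p and miR-199b-5p share their seed, and no other measured miRNA with a known sequence has it. The same limit to known sequences holds for the other 4 seeds, each of which was found in a single measured miRNA. Counted from the 5′ end, miR-199b-5p differs from miR-199a-5p by C10U and C17U and is 1 base shorter (22 against 23 bases), so reads may in part have been assigned to the wrong paralog and the separate values of these members carry that uncertainty.

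In Sscrofa11.1, miR-143-5p lies at chr2:150578752-150578772 and miR-143-3p at chr2:150578786-150578806, on the plus strand. The miR-145 hairpin starts 1388 bases further on the same strand, with miR-145-5p at chr2:150580141-150580164 and miR-145-3p at chr2:150580179-150580200. All 4 fall within an intron of IL17B, which is annotated on the opposite strand. miR-199a-5p is annotated with one sequence at 2 loci, chr2:69558099-69558121 in an intron of DNM2 and chr9:114533828-114533850 in an intron of DNM3, and reads cannot be assigned to either. miR-199b-5p lies at chr1:268691565-268691586 in an intron of DNM1. The 3 dynamin genes run on the opposite strand.

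The values are TMM-adjusted CPM, read counts relative to library size, which sum to 915120 to 1103611 per library. Each value is a whole multiple of a step that, if taken as 1 read, gives 1643814 to 2057437 miRNA reads in the HQ libraries and 898530, 2343594 and 3159116 in LQ replicates 1 to 3. LQ replicate 1 is thus the shallowest library. Log2 fold changes (log2FC) are those of HQ over LQ from limma on log2(CPM + 0.5), so that a negative value is a higher level in LQ, and p-values were adjusted by Benjamini-Hochberg over the 309 miRNAs whose group mean exceeded 1 CPM for HQ or LQ. All 6 members were among those 309.

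Together the 6 miRNAs were a minor part of the s-EV cargo, and a larger one in LQ. They held 0.157% to 0.176% of the summed CPM of an HQ library and 0.221% to 0.247% of an LQ library, and the lowest LQ share was above the highest HQ share. This difference rested on miR-143-3p, which made up 49.8% to 69.3% of the summed members in HQ and 70.7% to 81.4% in LQ. The other 5 members summed to 757, 442 and 567 CPM in HQ and to 508, 619 and 718 CPM in LQ, and these sums overlapped. The gonad miRNA miR-202-5p alone was at 39008 to 88612 CPM. Of the 6 members, 3 were higher in LQ past the test (miR-143-3p, miR-143-5p and miR-199b-5p), 1 was higher in HQ (miR-145-5p) and 2 did not pass (miR-145-3p and miR-199a-5p). Over all 309 miRNAs, 14.9% were higher in LQ and 11.7% higher in HQ past the same test. The groups did not overlap for 4 of the 6 members (3 with LQ higher and 1 with HQ higher), against 43.7% of all tested miRNAs (22.7% with LQ higher and 21% with HQ higher). The median log2FC was -0.75 over the members and 0.08 over all tested miRNAs.

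**Figure D1:**
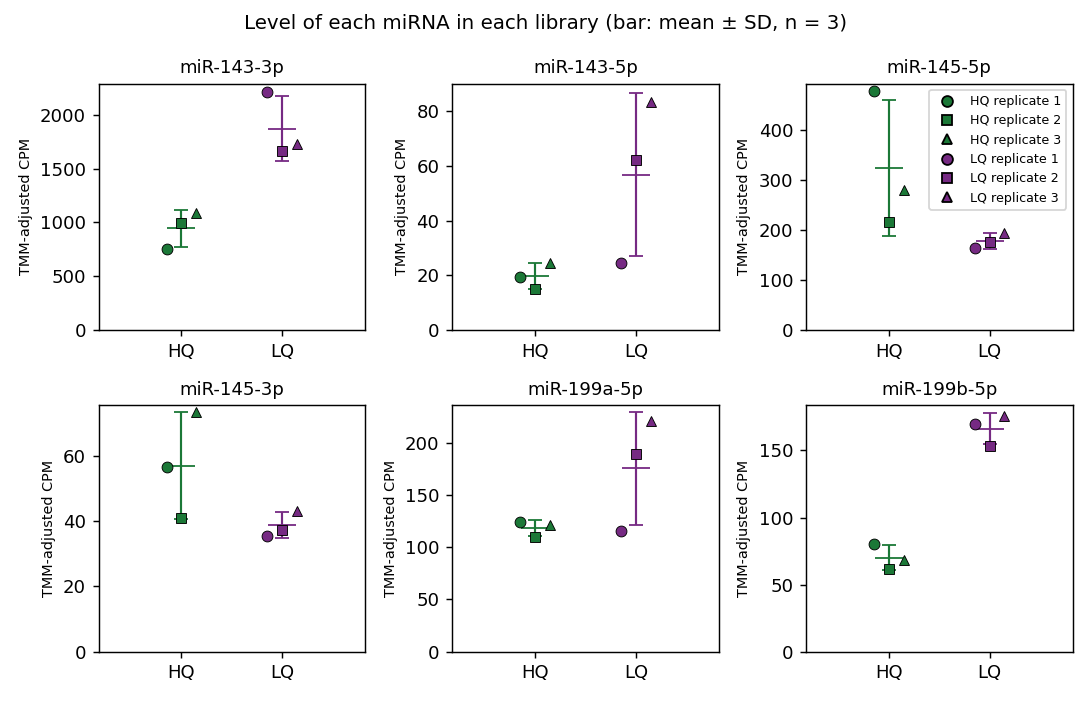
TMM-adjusted CPM of each of the 6 miRNAs in each library (y axis from 0), with the HQ libraries in green and the LQ libraries in purple, and the bar giving the mean ± SD of 3 libraries. The 3 LQ libraries stand above the 3 HQ libraries for miR-143-3p and miR-199b-5p, while for miR-143-5p LQ replicate 1, at 24.6 CPM, sits beside HQ replicate 3, at 24.5 CPM.

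Both arms of miR-143 were higher in LQ. miR-143-3p, the guide arm and the most abundant member, was at 752, 998 and 1087 CPM in HQ replicates 1 to 3 and at 2219, 1667 and 1733 CPM in LQ replicates 1 to 3. All LQ values lay above all HQ values. The mean ± SD over the 3 libraries of a group was 946 ± 173 CPM for HQ against 1873 ± 302 CPM for LQ, which gave a log2FC of -0.99 (SE 0.229, adjusted p = 0.00403 from limma). It ranked 74th by mean level in HQ and 51st in LQ. The call held without any 1 library (adjusted p from limma of 0.00393 to 0.0343) and was lost with a trendless variance prior in limma (0.0507) or when no filter on low values was used (0.0695).

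miR-143-5p, the passenger arm, was at 19.2, 15.1 and 24.5 CPM in HQ and at 24.6, 62.2 and 83.4 CPM in LQ replicates 1 to 3. LQ replicates 2 and 3 were well above the rest. LQ replicate 1 was above the highest HQ library by less than 1 step, and as a share of the library's summed CPM the groups overlapped, at 0.00223% in LQ replicate 1 and 0.00262% in HQ replicate 3. In steps of 1 read, the LQ replicate 1 value would stand on 20 reads and the HQ values on 34 to 43. The log2FC was -1.36 (SE 0.383, adjusted p = 0.0145 from limma). It was -1.88 without LQ replicate 1 (adjusted p = 0.000583 from limma), and the call was lost without HQ replicate 1 (0.0571) or HQ replicate 2 (0.111), and likewise without LQ replicate 2 (0.0528) or 3 (0.0578).

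For miR-145 the guide arm was higher in HQ, opposite in direction to miR-143. miR-145-5p, this guide arm, was at 476, 215 and 279.7 CPM in HQ and at 163, 176 and 194 CPM in LQ replicates 1 to 3. Every HQ value lay above every LQ value, and HQ replicate 1 stood far above the other two. The mean ± SD over 3 libraries was 324 ± 136 CPM for HQ against 178 ± 15.4 CPM for LQ, and the log2FC was 0.78 (SE 0.280, adjusted p = 0.0455 from limma). This call lay close to the threshold. Without HQ replicate 1 the log2FC was 0.46 (adjusted p = 0.240 from limma), and the call was also lost when HQ replicate 3 or either of LQ replicates 1 and 2 was left out (0.0664 to 0.111).

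miR-145-3p, the less abundant arm, was at 56.8, 40.9 and 73.6 CPM in HQ and at 35.6, 37.5 and 43.3 CPM in LQ. HQ replicate 2 lay below LQ replicate 3, so the groups overlapped. The log2FC of 0.52 (SE 0.290, adjusted p = 0.190 from limma) did not pass, with a 95% interval of -0.09 to 1.12.

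The paralogs of miR-199 differed in their spread. miR-199b-5p was at 80.3, 61.4 and 68.5 CPM in HQ and at 169, 153 and 176 CPM in LQ replicates 1 to 3. The groups were far apart relative to the spread within each, with a mean ± SD over 3 libraries of 70.0 ± 9.53 CPM for HQ against 166 ± 11.5 CPM for LQ. Its log2FC of -1.25 had an SE of 0.248 and an adjusted p of 0.00222 from limma, and it ranked 10th by p among the 309 miRNAs. It passed in each of the 17 alternatives in which it was tested alone (adjusted p from limma of 0.000137 to 0.0349).

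miR-199a-5p was at 124, 109 and 121 CPM in HQ and at 115, 189.6 and 221 CPM in LQ replicates 1 to 3. LQ replicate 1 lay inside the HQ range and LQ replicates 2 and 3 above it. The log2FC was -0.52 (SE 0.271, adjusted p = 0.162 from limma), with a 95% interval of -1.09 to 0.05. Without LQ replicate 1 it was -0.79 (adjusted p = 0.0221 from limma). With the reads of both paralogs summed, which removes the question of how they were split, the log2FC was -0.85 (adjusted p = 0.0144 from limma).

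**Figure D2:**
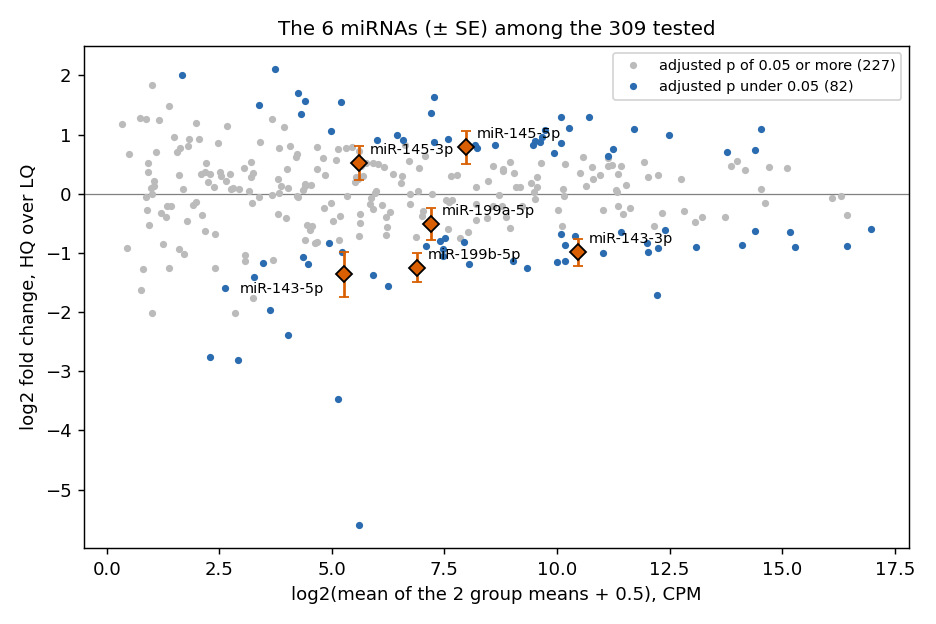
log2FC of HQ over LQ against mean level for the 309 tested miRNAs, as points in blue where adjusted p was under 0.05 and in grey otherwise, with the 6 miRNAs as orange diamonds ± SE. The miR-143 and miR-199 members lie below 0 and the miR-145 members above 0, and all 6 lie inside the range of the other miRNAs.

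Since miR-143 and miR-145 come from neighbouring hairpins, their ratio within a library was compared between the groups. A ratio within a library does not depend on how the library was scaled. The GC correction given further below was run on single miRNAs only, so how GC content bears on the ratios was not tested. miR-143-3p was 1.58, 4.64 and 3.89 times as high as miR-145-5p in HQ replicates 1 to 3, and 13.6, 9.45 and 8.93 times as high in LQ replicates 1 to 3. The lowest LQ ratio was above the highest HQ ratio, and HQ replicate 1 had the lowest ratio of all. The log2 ratio was 1.61 ± 0.833 (SD, n = 3) in HQ and 3.38 ± 0.328 (SD, n = 3) in LQ, a difference of -1.77.

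To give this difference a background, the same ratio was taken for the dominant miRNAs of all 43 pairs of hairpins that are next to each other on one strand within 10 kb. Of these pairs, 9 (20.9%) had a ratio that differed between the groups past limma's test over all pairs. The pair of miR-143-3p and miR-145-5p had the smallest p and the largest difference of the 43 pairs (SE 0.404, adjusted p = 0.0227 from limma, 95% interval -2.64 to -0.90), and the median size of the difference over all pairs was 0.51. Some pairs share a miRNA, so they are not independent. Without single libraries the difference was -2.08 to -1.30, and the test was no longer passed without HQ replicate 2 (adjusted p from limma of 0.0714), LQ replicate 1 (0.0534) or LQ replicate 2 (0.0503). Nor was it passed with the replicate number as a block (0.0647) or without a filter on low values (0.0825).

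**Figure D3:**
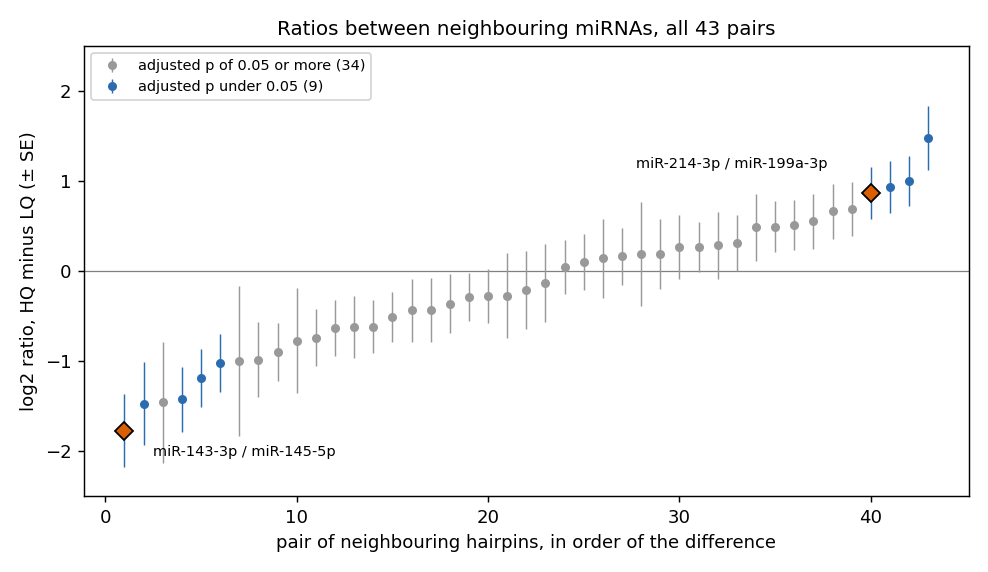
Difference between HQ and LQ in the log2 ratio of 43 pairs of neighbouring miRNAs (± SE), in order of the difference, in blue where adjusted p was under 0.05 and in grey otherwise. The pair of miR-143-3p and miR-145-5p, at -1.77, stands at the lower end, and the pair of miR-214-3p and miR-199a-3p, at 0.86, near the upper end (both as orange diamonds).

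The passenger arms gave a difference of the same sign. miR-143-5p was 0.339, 0.370 and 0.333 times as high as miR-145-3p in HQ, while it was 0.690, 1.66 and 1.93 times as high in LQ. The 3 HQ libraries were nearly equal, while LQ replicate 1 stood between them and the other LQ libraries. The difference of the log2 ratio was -1.88. For each ratio of guide or passenger arms the exact two-sided permutation test gave p = 0.1 (0.15 after adjustment over the 6 ratios of members tested), which is the smallest p that 3 against 3 libraries allow.

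The balance between the arms of one hairpin was not shown to differ between the groups. miR-143-3p exceeded miR-143-5p by 39.1 to 66.0 times in HQ, and by 90.4, 26.8 and 20.8 times in LQ replicates 1 to 3. LQ replicate 1 had the highest ratio of the 6 libraries and LQ replicates 2 and 3 the lowest. The 3p to 5p log2 ratio differed by 0.37 (SE 0.565, adjusted p = 0.775 from limma over 66 hairpins, 95% interval -0.93 to 1.68). Without LQ replicate 1 the difference was 1.01 and without LQ replicate 3 it was -0.04, so its sign rested on single libraries.

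miR-145-5p exceeded miR-145-3p by 8.39, 5.25 and 3.80 times in HQ replicates 1 to 3 and by 4.49 to 4.71 times in LQ. The LQ libraries were almost identical in this ratio and lay within the HQ range. The 3p to 5p log2 ratio differed by -0.27 (SE 0.387, adjusted p = 0.775 from limma, 95% interval -1.16 to 0.63), and by 0.04 without HQ replicate 1. Thus in both groups miR-143 was mostly read from its 3p arm and miR-145 from its 5p arm.

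**Figure D4:**
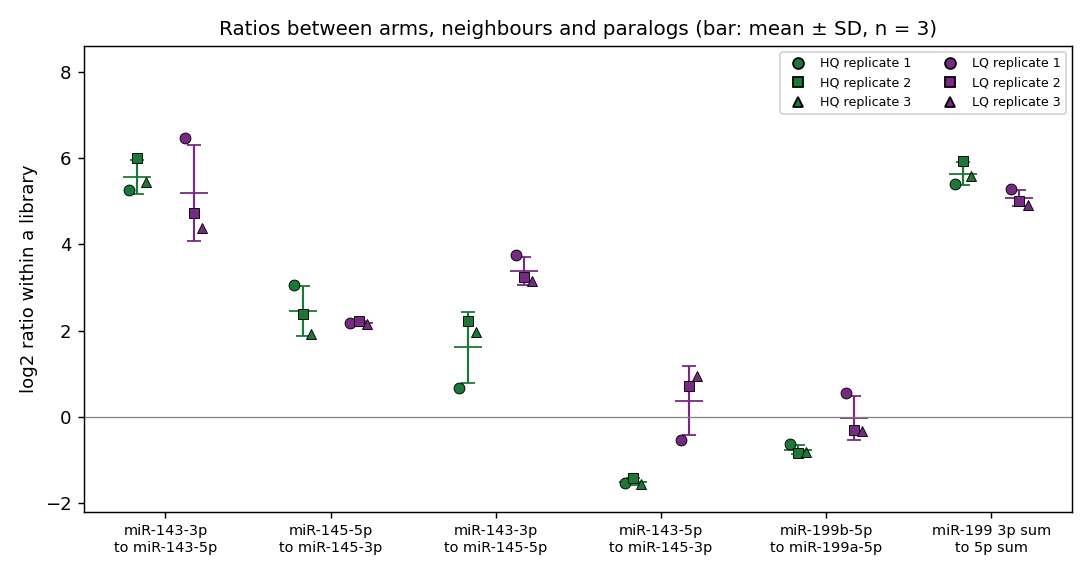
Log2 ratios within each library for the arms of miR-143 and miR-145, for guide and passenger arms of miR-143 against miR-145, for the miR-199 5p paralogs and for the summed miR-199 arms, with HQ in green, LQ in purple and the bar giving the mean ± SD of 3 libraries. The arm ratios of miR-143 and miR-145 overlap between the groups and the other 4 ratios do not. Of the 3p to 5p ratios of all 66 tested hairpins, 20 did not overlap between the groups.

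For miR-199 the less abundant arms are the members, and the 3p arms were the dominant ones. The mean ± SD of miR-199a-3p over 3 libraries was 6540 ± 668 CPM for HQ against 8001 ± 419.9 CPM for LQ, and its log2FC of -0.29 (adjusted p = 0.261 from limma) did not pass. miR-199b-3p had a log2FC of -0.23 (adjusted p = 0.409 from limma). The annotated 3p sequences of the paralogs are the same run of bases shifted by 1:
miR-199a-3p: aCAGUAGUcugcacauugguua
miR-199b-3p: uACAGUAGucugcacauugguu
Their separate values are therefore uncertain, and the ratio of the first to the second was nearly constant, at 2.25 to 2.28 in HQ and 2.31 to 2.40 in LQ.

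The 3p to 5p balance of miR-199b was lower in every LQ library. miR-199b-3p exceeded miR-199b-5p by 32.9, 52.6 and 40.8 times in HQ replicates 1 to 3 and by 19.7, 21.4 and 20.1 times in LQ replicates 1 to 3. The difference in the log2 ratio of 1.01 (SE 0.317) did not pass over the 66 hairpins (adjusted p = 0.108 from limma, 95% interval 0.28 to 1.75). In this test 0 of the 66 hairpins (0%) passed, 14 had an unadjusted p under 0.05, and 7 and 3 passed in the HQ and LQ direction with array weights. For 20 of the 66 hairpins the groups did not overlap in this ratio. With the paralogs summed, the 3p arms exceeded the 5p arms by 42.4 to 61.6 times in HQ and by 30.2 to 38.8 times in LQ, a difference of 0.57 (exact two-sided permutation test, p = 0.1, n = 3).

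The balance between the 5p paralogs was also compared, and the groups did not overlap, as for 20 of the 66 arm ratios. The level of miR-199b-5p relative to miR-199a-5p was 0.645, 0.561 and 0.566 in HQ replicates 1 to 3, whereas it was 1.47, 0.809 and 0.794 in LQ replicates 1 to 3. All LQ ratios were above all HQ ratios, and LQ replicate 1 was the only library with more of miR-199b-5p than of miR-199a-5p. The difference of the log2 ratio was -0.73 (exact two-sided permutation test, p = 0.1, adjusted p = 0.15, n = 3), and the smallest p this design allows is 0.1. Without LQ replicate 1 the difference was -0.44.

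Other miRNAs known from these cell types were looked at next, against the 26.5% of all tested miRNAs that passed in either direction. The hairpin of miR-214 lies 5791 bases from one copy of miR-199a on chromosome 9, and miR-214-3p is typical of the same mesenchymal cells. miR-214-3p was at 28.6, 49.4 and 42.8 CPM in HQ and at 28.2, 30.4 and 21.1 CPM in LQ, with a log2FC of 0.57 (adjusted p = 0.177 from limma) that did not pass. Relative to miR-199a-3p its log2 ratio differed by 0.86 (SE 0.291, adjusted p = 0.0491 from limma over the 43 neighbouring pairs). This call was at the threshold and held in only 4 of 13 alternatives (adjusted p from limma of 0.0280 to 0.190), being lost without any 1 library except HQ replicate 1. Of the 4 measured partners (miR-199a-3p, miR-199b-3p, miR-214-3p and miR-214-5p) 0 passed at the level of single miRNAs, and 0 had an unadjusted p under 0.05.

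Of 10 tested miRNAs known as regulators of vascular smooth muscle, 1 was higher in LQ (miR-133a-3p, at -1.55, adjusted p = 0.00222 from limma), whereas 9 did not pass. The paper discusses miR-133a-3p together with miR-206 and miR-133b, which are counted below as striated muscle markers. The most abundant of them were miR-146a-5p (log2FC -0.16, adjusted p = 0.549), miR-24-3p (0.40, adjusted p = 0.114) and miR-21-5p (-0.38, adjusted p = 0.151). The list had a median of -0.02, against 0.08 over all tested miRNAs. As a share of the library its sum was higher in HQ without overlap, at 5.47% to 6.78% against 5.04% to 5.34% in LQ. In summed CPM the groups overlapped, and the total CPM of every HQ library was below that of every LQ library. Of the abundant miRNAs just named, only miR-24-3p was higher in HQ without overlap, at 19524 to 23601 CPM against 15050 to 17372 CPM in LQ. miR-21-5p was higher in LQ without overlap, and for miR-146a-5p the groups overlapped. How often the share of such a list would separate the groups was not tested. Of 10 tested miRNAs of fibroblasts, 2 were higher in HQ (miR-125b and miR-100), 1 was higher in LQ (miR-152, at -0.64, adjusted p = 0.0115 from limma), whereas 7 did not pass, with a median of 0.24. Among the most abundant, miR-10b was at 0.55 (adjusted p = 0.0591 from limma) and miR-22-3p at 0.03 (adjusted p = 0.943). The paper also measured miR-125b by droplet digital PCR and found no significant difference between the groups there.

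The summed markers of endothelial, epithelial and striated muscle cells did not overlap between the groups, with LQ higher, in CPM and as a share of the library. Each of these sums was mostly 1 miRNA, and the groups did not overlap for 43.7% of all tested miRNAs. The summed level of the endothelial markers (2 of 2 measured) was 874 to 1062 CPM in HQ and 1619 to 2149 CPM in LQ. Of the 2, miR-126-5p passed the test as higher in LQ (log2FC -1.13, adjusted p = 0.00222 from limma). The groups overlapped for miR-126-3p (-0.18, adjusted p = 0.640 from limma). Epithelial markers (4 of 6 measured) summed to 779 to 1063 CPM in HQ and 1301 to 1534 CPM in LQ. They were mostly miR-141, and the groups overlapped for miR-429 and miR-205 but not for miR-200b. Striated muscle markers (4 of 4) summed to 79.3 to 126 and 165 to 222 CPM. They were mostly miR-499-5p, which did not pass (-0.73, adjusted p = 0.0526 from limma), while miR-206 (-2.39) and miR-133b (-1.96) passed. Leukocyte markers (5 of 5) summed to 193 to 213 CPM in HQ and 217 to 318 CPM in LQ, but as a share of the library the groups overlapped, at 0.0206% to 0.0232% and 0.0197% to 0.0295%. Within that list the levels went both ways, with miR-142-5p at a log2FC of -1.36 (adjusted p = 0.00365 from limma) and miR-155-5p at 0.52 (adjusted p = 0.146 from limma), neither with overlapping groups. The sum of the erythrocyte markers (3 of 4 measured) went the other way, with 99.3 to 152 CPM in HQ and 78.0 to 87.3 CPM in LQ. As a share of the library it did not overlap between the groups either. That sum was mostly miR-486 (log2FC 0.91, adjusted p = 0.0158 from limma). By contrast, miR-451 was higher in LQ (-1.18, adjusted p = 0.0403 from limma). miR-144 was listed at 0 in all HQ libraries and in LQ replicate 1. Gonad markers (4 of 4) overlapped, at 40272 to 89372 and 61426 to 76648 CPM, with miR-383 at 0 in 3 libraries. Of the single markers tested, 1 of 4 epithelial, 1 of 5 leukocyte and 2 of 4 striated muscle miRNAs were higher in LQ past the test, 1 of 3 gonad miRNAs was higher in HQ, and of 2 erythrocyte miRNAs 1 passed in each direction, where 14.9% of all tested miRNAs passed as higher in LQ and 11.7% as higher in HQ. The part of these cell types in the changes of miR-143, miR-145 and miR-199 was not tested.

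For each member the miRNAs with the most similar profile over the 6 libraries were looked up. The likeness of a pair of miRNAs was measured as the root mean square difference of their log2(CPM + 0.5) values after each was centred over the libraries. miR-143-3p was closest to miR-148a-3p (0.125) and miR-148b-3p (0.155), and miR-143-5p to miR-133a-3p (0.210) and miR-142-5p (0.264). miR-145-5p was closest to miR-455-3p (0.120) and miR-505 (0.124), and miR-145-3p to miR-1296-5p (0.250) and let-7f-3p (0.279). miR-199a-5p was closest to miR-15b and miR-223 (0.136 each), and miR-199b-5p to miR-218b (0.187) and miR-126-5p (0.208). Of these nearest miRNAs, none was listed for more than one member.

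The scaling of the libraries and the GC content of the mature sequences moved the sizes of the fold changes and not their signs. After each library was scaled to the same sum, the median log2FC of all tested miRNAs was 0.25 against 0.08 with TMM, and 60 miRNAs passed as higher in HQ against 27 in LQ, where TMM gave 36 and 46. The log2FCs were then -0.79 for miR-143-3p, -1.17 for miR-143-5p, 0.98 for miR-145-5p and -1.05 for miR-199b-5p, all past the test. miR-143-5p had the highest GC content of the members, at 61.9%, and miR-145-3p and miR-199b-5p the lowest, at 40.9%. Separately, the trend of each library with GC content was subtracted, over only the 256 tested miRNAs with a known sequence. With this correction miR-143-5p was at -1.86 (adjusted p = 0.00407 from limma), miR-199b-5p at -0.97 (adjusted p = 0.00866) and miR-145-5p at 0.72 (adjusted p = 0.0623).

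**Figure D5:**
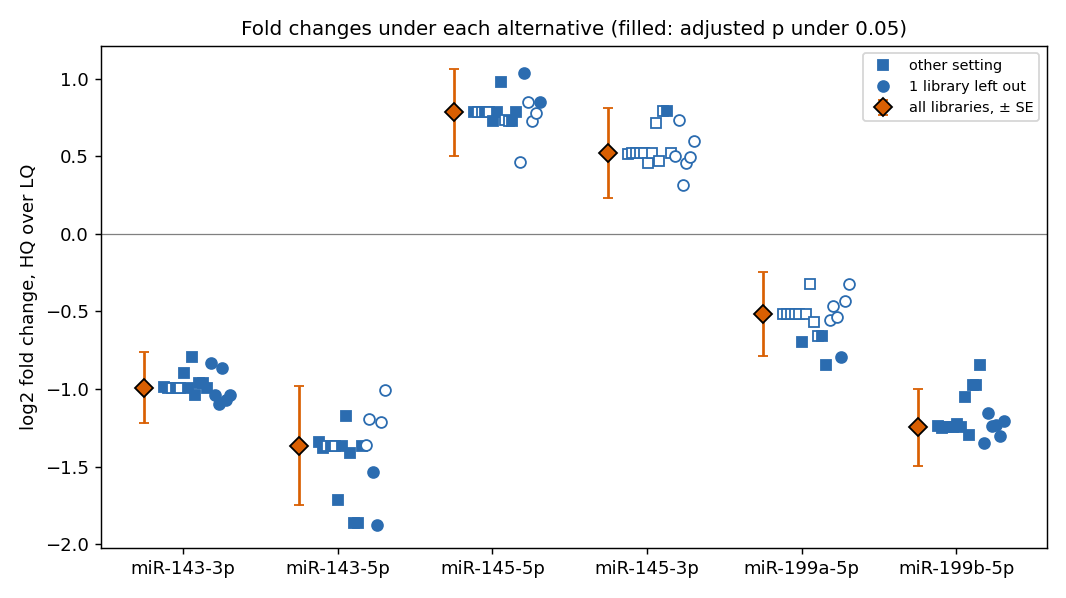
log2FC of each of the 6 miRNAs with all libraries (orange, ± SE), with 1 library left out (circles) and under the other settings (squares), filled where adjusted p was under 0.05. All values of miR-143 and miR-199 lie below 0 and all values of miR-145 above 0, and miR-199b-5p is filled throughout (the alternative that sums the miR-199 5p paralogs is drawn for both).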

How the data were processed

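Small-RNA libraries were made with the QIAseq miRNA Library Kit. The paper's methods describe trimming, mapping to Sscrofa11.1, annotation with miRBase and TMM normalization in CLC Genomics Workbench, whereas bcl2fastq, Bowtie2 2.2.2 and DESeq2 stand in the submitters' processing notes, and the tool behind the values is not settled. The table the authors deposited holds a signal for each miRNA, namely TMM-adjusted CPM. The values are whole multiples of 1 step per library, but a test of counts was not run, since only LQ replicate 1 had the 100 low values (up to 20 steps) required here to accept the steps as reads (80 to 97 in the HQ libraries, 83 in LQ replicates 2 and 3). Numbers of reads in the text assume that 1 step is 1 read. No source used here says if unique molecular identifiers were counted.

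The 309 of 453 miRNAs whose group mean exceeded 1 CPM for HQ or LQ were tested two-sided on log2(CPM + 0.5) by limma (version 3.58.1, R 4.3.3), whose variance prior followed the mean level. A call in this text needed only an adjusted p under 0.05. The planned rule, like that of the paper, also asked for a fold of at least 2 and a mean above 5 CPM in the higher group. miR-143-3p (log2FC -0.99) and miR-145-5p (0.78) did not reach that fold. The paper's own list of differential miRNAs, from the same libraries, holds miR-143-5p and miR-199b-5p as higher in LQ. No other member is on it. The same model was fitted to the 3p to 5p ratios of 66 hairpins and to 43 pairs of neighbouring hairpins. Ratios of members were also compared one at a time by exact permutation. Members, lists and tests were chosen with earlier results of these data known. Named besides the 6 members are the partners of their hairpins, the top 3 by level of each tested list and, for each member, the 2 miRNAs with the most similar profile. miR-133a-3p, miR-125b, miR-100, miR-202-5p, miR-142-5p, miR-155-5p and the markers at 0 were named after their values were seen. So were the endothelial, epithelial, striated muscle and erythrocyte markers that are named singly. Names were looked up in the RefSeq annotation of Sscrofa11.1 for sequences and positions. A full match was found for 347, a match of the hairpin alone for 20 (their arm was taken from the place in the hairpin) and none for 86. The fits of single miRNAs and of arm ratios were run on simulated data, whereas the neighbour ratios and the permutation tests were not. Each fit was repeated, where it applied, with another filter, pseudocount, variance prior, library weights, scaling, a GC correction, the replicate number as a block, the sum of the miR-199 paralogs, the distance between neighbours and leaving out each library. Figures were drawn with matplotlib 3.10.9.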

Additional observations from a re-analysis of the deposited data

How the results depend on the processing

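Over the 18 alternatives run for single miRNAs, all 6 members kept their sign. miR-143-3p passed in 16, miR-143-5p in 12, miR-145-5p in 9, miR-199b-5p in 18, miR-199a-5p in 4 and miR-145-3p in 1, where the sum of the miR-199 5p paralogs counts for both. Where a call changed below, the cause was not tested. Without a filter on low values (453 miRNAs, 108 of them at 0 in all libraries), 2 calls were left for HQ and 5 for LQ, miR-143-3p (-0.99), miR-143-5p (-1.36), miR-145-5p (0.78) and the miR-143-3p to miR-145-5p ratio (-1.77) no longer passed, and 0 neighbour ratios did. With no trend in the variance prior, 11 were higher in HQ and 18 in LQ, and miR-143-3p (-0.99), miR-143-5p (-1.36) and miR-145-5p (0.78) did not pass. miR-145-5p also did not pass with a pseudocount of 0.1 (0.78), median ratio scaling (0.73) or GC correction (0.72). Equal sums gave 60 higher in HQ and 27 in LQ, and array weights 56 in HQ. GC correction, run on only the 256 tested miRNAs with a known sequence, gave 27 in LQ. miR-199a-5p passed with array weights (-0.70) and when summed with miR-199b-5p (-0.85). The arm ratios past the test in HQ and LQ numbered 1 and 2 with a pseudocount of 1, 3 and 2 with a mean above 5 CPM, and 7 and 3 with array weights, where miR-199b passed (1.02). Neighbours within 3 kb gave 5 calls. The median log2FC was 0.03 over all tested miRNAs with median ratio scaling, and 0.04 over the 256 miRNAs with GC correction.

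Same-numbered HQ and LQ libraries did not deviate together from their group means (r of -0.0360 to -0.0052 across miRNAs, and not each library was closest to its own number), so the numbers were not taken to pair them. With the replicate number as a block, 0 neighbour ratios passed and the miR-143-3p to miR-145-5p ratio (-1.77) did not. Among single miRNAs the block gave 44 higher in HQ and 53 in LQ, and miR-143-3p, miR-143-5p, miR-145-5p and miR-199b-5p passed. GC correction with the block let miR-145-3p (0.79) and miR-199a-5p (-0.66) pass.

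With 1 library left out, the number past the test was 9 to 48 for HQ and 20 to 61 for LQ (fewest without HQ replicate 2, most without LQ replicate 1). The log2FC was -1.10 to -0.83 for miR-143-3p, -1.88 to -1.004 for miR-143-5p, 0.46 to 1.04 for miR-145-5p, 0.32 to 0.74 for miR-145-3p, -0.79 to -0.32 for miR-199a-5p and -1.35 to -1.16 for miR-199b-5p. The 3p to 5p log2 ratio differed by -0.037 to 1.01 for miR-143, -0.53 to 0.037 for miR-145, 0.07 to 0.47 for miR-199a and 0.84 to 1.18 for miR-199b, with 0 to 1 hairpins past the test. From 0 to 8 neighbour ratios passed, and the miR-143-3p to miR-145-5p ratio differed by -2.08 to -1.30. Taken alone, the 5p to 3p ratio of miR-145 differed by -0.037 to 0.53. The shallowest library limits miR-143-5p most, at 20 steps of the table.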
